A study of Mus musculus with 11 samples.

Results

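The treatment by time interaction was measured in NIH-3T3 cells given AS1411 or a control oligonucleotide. For each gene it is the AS1411 minus control difference at 48 h less the same difference at 24 h, on the log2 scale. The same value is the change from 24 h to 48 h in AS1411 cells minus that in control cells, so a positive interaction means that AS1411 cells moved upward relative to control cells. All 11 libraries and 4 groups entered the fit: 3 libraries with 10 µM AS1411 for 24 h, 2 with 10 µM AS1411 for 48 h, 3 with the control at 10 µM for 24 h and 3 with the control at 10 µM for 48 h. Of 13040 genes tested, out of 15022 in the count table, 3594 passed as interacting genes, and these were sorted by whether AS1411 cells, control cells or both had changed over time. NIH-3T3 is an immortalised line of mouse embryonic fibroblasts, labelled wild type, and both oligonucleotides were added to culture medium with serum. All 4 groups share the line and the medium, and no untreated cells or starting time point were analysed here.

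AS1411 is a guanine-rich DNA oligonucleotide that folds into stacked guanine tetrads and is known for binding nucleolin. Nucleolin is a nucleolar RNA-binding protein needed for ribosomal RNA synthesis, and disturbed nucleolar function is a known route to p53 activation. p53 turns on cell-cycle inhibitors such as Cdkn1a and its own ubiquitin ligase Mdm2. The design text of the study asks how AS1411 changes gene expression, and the interaction asks whether that effect differed between 24 h and 48 h.

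Both oligonucleotides are shown because the treatment contrast is the contrast between these sequences. They have 26 bases each and differ at 17 positions, where AS1411 has guanine and the control has cytosine, capitals here. The other 9 bases are thymine in both.
AS1411: GGtGGtGGtGGttGtGGtGGtGGtGG
control oligonucleotide: CCtCCtCCtCCttCtCCtCCtCCtCC

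Total counts per library ran from 13541951 to 18784497. Levels below are CPM, counts relative to the library total after TMM scaling, which corrects for libraries whose RNA makeup differs. One library, control replicate 2 at 48 h, was unlike the rest of its group: set against the other two, it gave chi-square values per gene of 9.64 and 13.003, where those gave 4.75 between themselves and pairs within other groups gave 1.54 to 4.005. Leading counts over all genes are therefore given with and without it, and list counts where leaving it out moved them by more than 1.5 times. The 48 h AS1411 group holds 2 libraries, so its spread rests on fewer samples than that of the other groups. Of 12 fibroblast markers, 9 were tested. Their summed level was 6447 to 6826 CPM with AS1411 at 24 h, 4841 to 5445 with AS1411 at 48 h, 7066 to 7680 with the control at 24 h and 7473 to 8864 with the control at 48 h. Thy1, Dcn and Lum were not analysed here. Among the 9, Pdgfrb, Col1a2 and Col1a1 had a lower interaction, and the count was 6 without control replicate 2 at 48 h. In bulk RNA, fewer cells of a kind and less RNA per cell cannot be told apart. Leukocyte, epithelial, endothelial, neuronal, glial and skeletal muscle markers gave 7 tested genes out of 28 listed. Values for most of them are among the further observations.

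The AS1411 effect differed between 24 h and 48 h for 3594 genes, 27.6% of those tested (edgeR quasi-likelihood test, Benjamini-Hochberg adjusted p under 0.05). The interaction was higher for 1749 genes (13.4%) and lower for 1845 (14.1%), so both directions were about equally frequent. Large interactions were mostly upward: 366 genes were at least 2-fold higher and 77 at least 2-fold lower. The 366 include low-count genes, such as Hist1h1b, that passed the filter on low counts through the 48 h AS1411 libraries alone. A filter of at least 1 CPM in at least 2 libraries, which can admit such genes too, gave 329 and 73. Among genes whose average log2 CPM was 3 or more, called well expressed below, Txnip, which limits glucose uptake, led at 3.504. Ptpn22, a tyrosine phosphatase, was at 2.95. Without control replicate 2 at 48 h the counts were 2039 higher and 2238 lower, and 412 and 120 at 2-fold or more. Of the 3594 genes, 3441 were called again there and 2812 without AS1411 replicate 3 at 24 h. The latter was the fewest among fits without 1 library that kept at least 2 in every group. The balance of directions depended on scaling: without TMM, scaling by library size alone gave 2305 higher and 1192 lower, so that 65.9% of called genes were higher against 48.7% with TMM, and the median over all genes moved from -0.0049 to 0.06. At the edge of the threshold lay Gmeb2, just inside at 0.23 with an adjusted p of 0.04998, and Usp39, just outside at -0.17 with an adjusted p of 0.0502.

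More genes changed over time in AS1411 cells than in control cells. From 24 h to 48 h, 49.1% of genes passed in AS1411 cells (24.5% rose, 24.6% fell) and 24.8% in control cells (11.6% rose, 13.2% fell). Without control replicate 2 at 48 h these shares were 54.996% and 30.5%. Sorted by these calls, 2226 interacting genes (61.9%) had changed in AS1411 cells without a call in control cells, 433 (12.05%) had a call in control cells alone, 327 (9.10%) had moved in opposite directions, 481 (13.4%) had moved in the same direction to different extents and 127 (3.53%) had a call in neither. The classes describe how each interaction arose and are not a separate test, since the time changes add up to the interaction. A time change that missed the threshold is not shown to be absent. Without control replicate 2 at 48 h the classes held 2361, 595, 518, 664 and 139 genes in the same order. The class with opposite changes held 198 genes without control replicate 2 at 24 h, and the class with the same direction held 248, 266 and 292 without control replicate 1, 2 or 3 at 24 h.

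**Figure D1:**
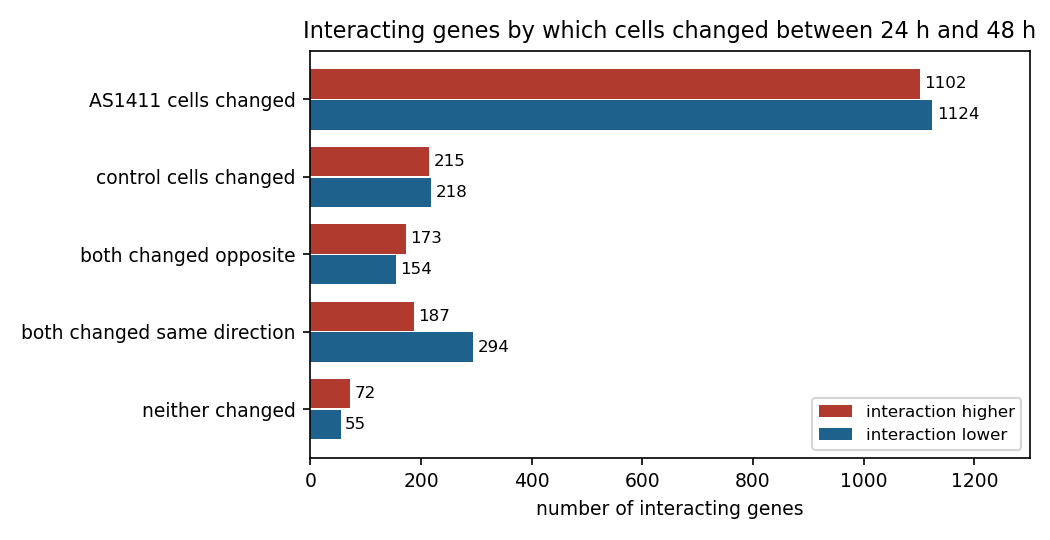
Number of interacting genes (x axis) in each time class (y axis), with bars in red for a higher and in blue for a lower interaction. The class in which AS1411 cells changed holds 1102 higher and 1124 lower genes, and each other class holds at most 294 in either direction.

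**Figure D2:**
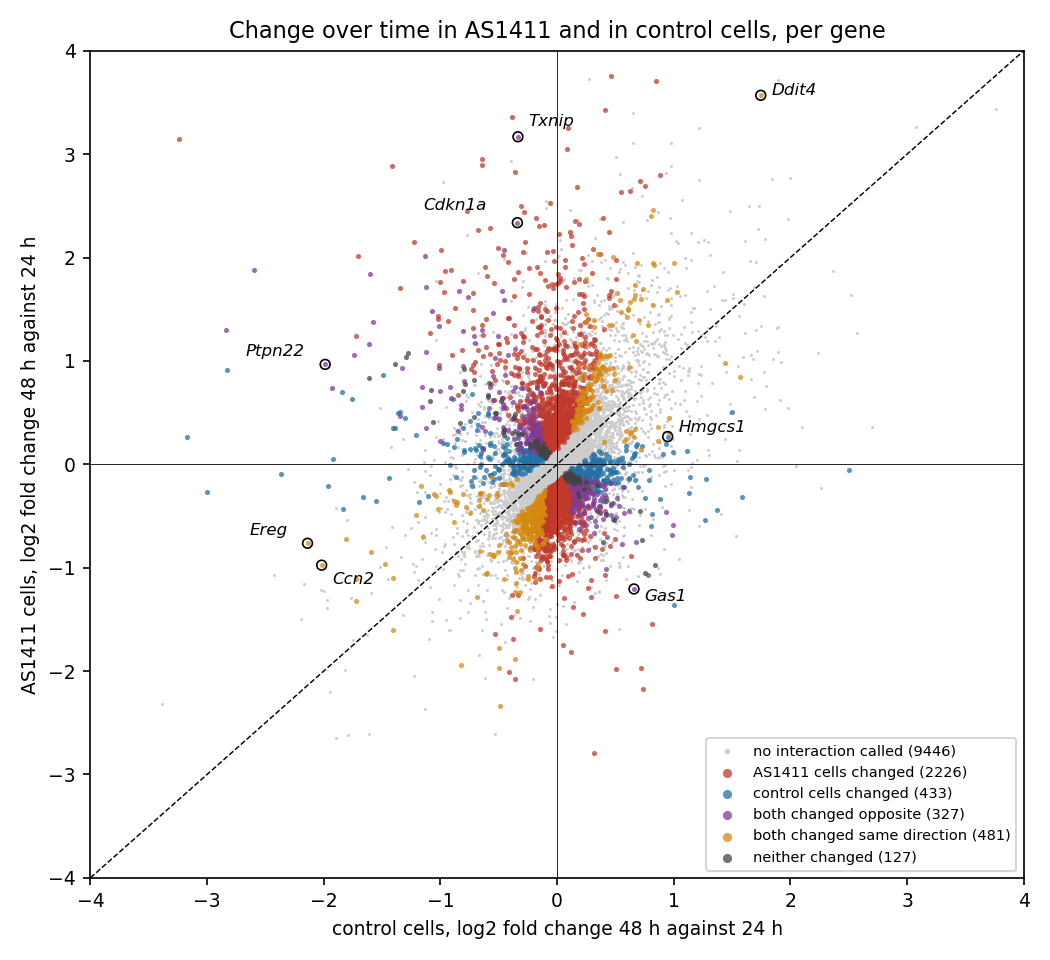
Log2 change from 24 h to 48 h of each tested gene in control cells (x axis) and in AS1411 cells (y axis), coloured by time class, with 10 genes outside the axes. The dashed line marks equal change, so distance from it is the interaction: Txnip and Cdkn1a lie far above it near 0 for control cells, and Gas1 lies below it.

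Where AS1411 cells alone had a call, the interaction and the AS1411 time change were nearly the same size. The 1102 higher genes had a median interaction of 0.49, a median AS1411 time change of 0.48 and a median control time change of -0.03. For the 1124 lower genes these medians were -0.36, -0.36 and 0.0026. The largest higher interactions among well-expressed genes were Hist1h2bc, which encodes a core histone H2B, Hist1h1c, a linker histone, and Resf1, a factor for silencing retroelements. Histone genes are close copies of one another, so their reads may be shared between copies. Hist1h2bc was at 5.68, 6.94 and 7.36 CPM with AS1411 at 24 h, 34.1 and 35.9 with AS1411 at 48 h, 9.14, 8.46 and 8.29 with the control at 24 h, and 5.05, 8.69 and 8.82 with the control at 48 h. Its interaction was 2.57 ± 0.224 (log2, SE) with an edgeR adjusted p of 7.2e-07. Hist1h1c was at 19.004, 20.6 and 17.1 CPM with AS1411 at 24 h, 68.9 and 72.9 with AS1411 at 48 h, 23.3, 21.6 and 20.4 with the control at 24 h, and 16.96, 19.1 and 21.7 with the control at 48 h. The 48 h AS1411 libraries were the only high ones, and the other 9 lay between 16.96 and 23.3 CPM. Its interaction was 2.09 ± 0.129 (edgeR adjusted p = 1.9e-09). Resf1 was at 46.9, 52.9 and 47.1 CPM with AS1411 at 24 h, 172 and 169.8 with AS1411 at 48 h, 65.4, 72.3 and 77.8 with the control at 24 h, and 68.9, 74.7 and 74.4 with the control at 48 h. It was lower with AS1411 than with the control at 24 h and higher at 48 h, with no overlap at either time, while control libraries of both times overlapped. The interaction of Resf1 was 1.79 ± 0.0899 (edgeR adjusted p = 2.0e-10).

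The largest lower interactions in this class were Pappa, a secreted protease that frees insulin-like growth factors, Slc24a3, a sodium/calcium-potassium exchanger, and Slc1a3, a glutamate transporter. Pappa was at 7.39, 7.09 and 7.58 CPM with AS1411 at 24 h, 1.598 and 2.15 with AS1411 at 48 h, 8.96, 9.27 and 8.95 with the control at 24 h, and 7.82, 11.8 and 18.5 with the control at 48 h. It fell by 1.98 on the log2 scale in AS1411 cells (edgeR adjusted p = 0.002196), and the control libraries of both times overlapped. The interaction was -2.49 ± 0.472 (edgeR adjusted p = 0.00359). Slc24a3 was at 58.1, 63.4 and 61.8 CPM with AS1411 at 24 h, 25.2 and 19.2 with AS1411 at 48 h, 54.5, 51.2 and 53.6 with the control at 24 h, and 65.1, 49.3 and 70.9998 with the control at 48 h. AS1411 libraries at 48 h were below all others. Its interaction was -1.67 ± 0.204 (edgeR adjusted p = 2.8e-04). Slc1a3 was at 57.3, 60.8 and 57.3 CPM with AS1411 at 24 h, 16.5 and 12.4 with AS1411 at 48 h, 53.6, 52.1 and 49.7 with the control at 24 h, and 42.2, 26.7 and 48.1 with the control at 48 h. Its control libraries at 48 h were all below those at 24 h, yet that change of -0.41 did not pass (edgeR adjusted p = 0.164). Control replicate 2 at 48 h was the lowest of its group for Slc24a3 and Slc1a3, and without it the interaction of Slc1a3 was -1.81 (edgeR adjusted p = 1.8e-11).

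In 433 genes the call over time was in control cells alone. For the 215 higher genes the control had fallen, by a median of 0.33 on the log2 scale, with a median AS1411 change of 0.06. For the 218 lower genes the control had risen by a median of 0.33, against -0.07 in AS1411 cells. The largest higher interactions here were Fos, a transcription factor induced by growth factors, Tmem171, a transmembrane protein, and Tnfaip3, an inhibitor of NF-kB signalling also called A20. Fos was at 13.9, 9.71 and 10.4 CPM with AS1411 at 24 h, 18.1 and 13.8 with AS1411 at 48 h, 10.1, 8.93 and 6.82 with the control at 24 h, and 2.49, 1.84 and 5.53 with the control at 48 h. All control libraries at 48 h lay below those at 24 h, and AS1411 libraries overlapped between the times. Its interaction was 1.86 ± 0.475 (edgeR adjusted p = 0.0199), and the adjusted p was 0.0742 without AS1411 replicate 1 at 48 h. Tmem171 was at 13.4, 16.4 and 13.9 CPM with AS1411 at 24 h, 20.7 and 20.7 with AS1411 at 48 h, 12.6, 14.8 and 12.6 with the control at 24 h, and 3.11, 7.897 and 4.58 with the control at 48 h. The treatments overlapped at 24 h and were apart at 48 h, with an interaction of 1.86 ± 0.313 (edgeR adjusted p = 0.00143). Tnfaip3 was at 120.2, 119 and 112 CPM with AS1411 at 24 h, 135 and 150.1 with AS1411 at 48 h, 106, 97.3 and 103 with the control at 24 h, and 33.6, 53.6 and 44.9 with the control at 48 h. AS1411 libraries lay above the control at both times, and the AS1411 change over time of 0.28 did not pass (edgeR adjusted p = 0.118). Its interaction was 1.49 ± 0.191 (edgeR adjusted p = 6.3e-04).

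On the lower side of this class stood Ptch1, the Hedgehog receptor and itself a Hedgehog target, Piezo2, a mechanically gated ion channel, and Lsp1, an actin-binding protein. Ptch1 was at 20.8, 21.4 and 17.99 CPM with AS1411 at 24 h, 17.5 and 18.6 with AS1411 at 48 h, 24.8, 25.4 and 25.6 with the control at 24 h, and 45.8, 35.3 and 49.3 with the control at 48 h. The control libraries rose between the times without overlap, and the AS1411 libraries overlapped. Its interaction was -0.93 ± 0.164 (edgeR adjusted p = 6.1e-04). Lsp1 was at 29.9, 27.3 and 26.9 CPM with AS1411 at 24 h, 32.1 and 28.6 with AS1411 at 48 h, 30.9, 29.9 and 27.4 with the control at 24 h, and 65.1, 59.1 and 51.7 with the control at 48 h. As with Ptch1, the treatments were apart at 48 h, but at 24 h they overlapped. The interaction of Lsp1 was -0.87 ± 0.125 (edgeR adjusted p = 5.2e-05). Piezo2 had an interaction of -0.91 ± 0.217 (edgeR adjusted p = 0.00447), from a control change of 0.69 and an AS1411 change of -0.22 that did not pass.

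In 327 genes both treatments changed over time, in opposite directions. For 173 of them AS1411 cells rose, by a median of 0.37, and control cells fell, by a median of 0.29 on the log2 scale. For 154 AS1411 cells fell, by a median of 0.28, and control cells rose by 0.23. Txnip was at 8.97, 8.25 and 8.47 CPM with AS1411 at 24 h, 80.2 and 73.9 with AS1411 at 48 h, 8.72, 8.998 and 10.1 with the control at 24 h, and 8.86, 6.31 and 6.92 with the control at 48 h. Only the 48 h AS1411 libraries stood out, and the treatments overlapped at 24 h. The interaction of Txnip was 3.504 ± 0.157 (edgeR adjusted p = 2.7e-11), from a rise of 3.17 in AS1411 cells and a fall in control cells whose libraries overlapped (-0.34, edgeR adjusted p = 0.0457). Ptpn22 was at 14.8, 13.7 and 14.7 CPM with AS1411 at 24 h, 25.96 and 30.6 with AS1411 at 48 h, 10.9, 14.3 and 13.6 with the control at 24 h, and 2.77, 4.22 and 2.74 with the control at 48 h. Its treatments overlapped at 24 h, then moved apart. The interaction was 2.95 ± 0.201 (edgeR adjusted p = 1.1e-08), with changes of 0.97 in AS1411 cells and -1.99 in control cells. Cdkn1a, the cyclin-dependent kinase inhibitor p21, was at 26.3, 26.95 and 26.8 CPM with AS1411 at 24 h, 153 and 116 with AS1411 at 48 h, 18.3, 17.7 and 17.9 with the control at 24 h, and 13.6, 12.7 and 16.2 with the control at 48 h. It was higher with AS1411 at both times, and more so at 48 h. Its interaction was 2.68 ± 0.155 (edgeR adjusted p = 2.3e-08).

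The lower genes of this class included Gas1, a membrane protein first described in growth-arrested fibroblasts, Arhgap28, a GTPase-activating protein, and Pdgfrb, a receptor for platelet-derived growth factor. Gas1 was at 55.6, 61.1 and 65.1 CPM with AS1411 at 24 h, 29.04 and 23.3 with AS1411 at 48 h, 135, 131 and 123 with the control at 24 h, and 219, 168 and 227 with the control at 48 h. AS1411 libraries were lower at both times, with the widest gap at 48 h. Its interaction was -1.87 ± 0.203 (edgeR adjusted p = 2.5e-04), with changes of -1.21 in AS1411 cells and 0.66 in control cells. Arhgap28 was at 36.4, 40.2 and 43.1 CPM with AS1411 at 24 h, 26.6 and 22.9 with AS1411 at 48 h, 46.01, 52.6 and 50.6 with the control at 24 h, and 96.1, 107 and 91.4 with the control at 48 h. Neither the times nor the treatments overlapped, with AS1411 below the control throughout. The interaction was -1.67 ± 0.122 (edgeR adjusted p = 6.7e-08). Pdgfrb was at 59.6, 57.996 and 62.02 CPM with AS1411 at 24 h, 46.6 and 32.9 with AS1411 at 48 h, 56.7, 50.6 and 51.7 with the control at 24 h, and 107, 84.5 and 125 with the control at 48 h. AS1411 libraries lay above the control at 24 h, by 0.18, which did not pass (edgeR adjusted p = 0.478). At 48 h they lay below it. The interaction was -1.58 ± 0.251 (edgeR adjusted p = 0.00262).

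**Figure D3:**
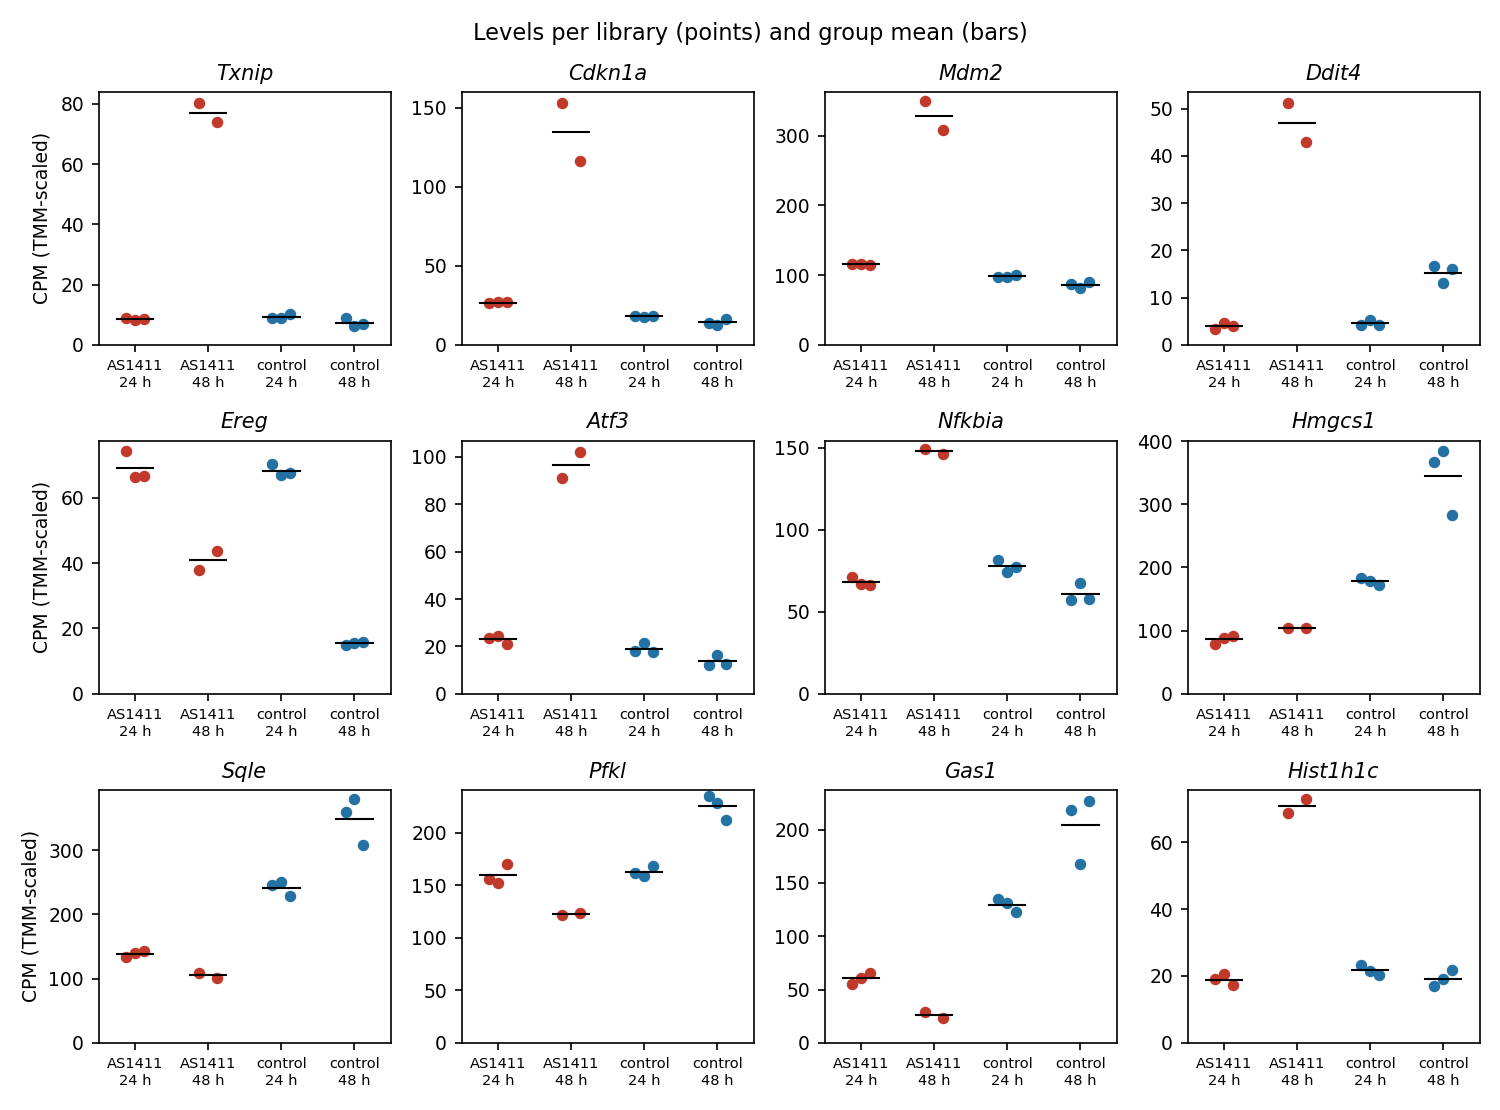
Level per library in CPM (y axis, starting at 0) of 12 genes in the 4 groups (x axis), with points for libraries and bars for group means. For Txnip, Cdkn1a, Mdm2 and Hist1h1c the 48 h AS1411 libraries stand apart from the other groups, for Ereg all groups at 48 h are below 24 h, and for Hmgcs1, Sqle and Gas1 the 48 h control libraries are the highest.

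In 481 genes both treatments changed in the same direction by different amounts. AS1411 cells had the larger change in 147 rising and 279 falling genes, and control cells in 15 rising and 40 falling genes. Ddit4 and Sesn2, both inhibitors of the growth kinase complex mTORC1, rose in both treatments and further with AS1411. Ddit4 was at 3.35, 4.53 and 4.05 CPM with AS1411 at 24 h, 51.1 and 42.9 with AS1411 at 48 h, 4.15, 5.24 and 4.26 with the control at 24 h, and 16.7, 13.2 and 15.96 with the control at 48 h. The treatments overlapped at 24 h and were apart at 48 h. Its interaction was 1.82 ± 0.204 (edgeR adjusted p = 3.7e-06), from rises of 3.57 and 1.75. Sesn2 was at 21.2, 21.3 and 21.3 CPM with AS1411 at 24 h, 77.03 and 69.9 with AS1411 at 48 h, 22.7, 19.7 and 22.01 with the control at 24 h, and 24.02, 28.96 and 23.4 with the control at 48 h. It showed the same order as Ddit4, with an interaction of 1.54 ± 0.121 (edgeR adjusted p = 4.1e-08). Cxcl10, a chemokine, had changes of 2.04 in AS1411 cells and 0.35 in control cells and an interaction of 1.69 ± 0.172 (edgeR adjusted p = 1.9e-06). Gjb2, which encodes the gap junction protein connexin 26, was at 296, 284 and 269.6 CPM with AS1411 at 24 h, 74.2 and 70.1 with AS1411 at 48 h, 467, 465 and 452 with the control at 24 h, and 302, 331 and 346 with the control at 48 h. It fell in both treatments without overlap between times, and its interaction was -1.47 ± 0.0758 (edgeR adjusted p = 2.0e-10). Also lower were Sorcs2, a sorting receptor, at -1.84 ± 0.254 (edgeR adjusted p = 1.6e-04) and S1pr3, a sphingosine-1-phosphate receptor, at -1.53 ± 0.193 (edgeR adjusted p = 1.7e-05), both falling further with AS1411.

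The 127 genes with a call in neither treatment had median interactions of 0.37 for 72 higher and -0.29 for 55 lower genes, and 25 of them were at least 2-fold. Ogn, a small matrix proteoglycan, was at 54.2, 63.9 and 57.3 CPM with AS1411 at 24 h, 37.9 and 20.8 with AS1411 at 48 h, 84.6, 72.99 and 67.9 with the control at 24 h, and 150.5, 85.2 and 168 with the control at 48 h. Its interaction of -1.82 ± 0.4601 (edgeR adjusted p = 0.0243) was the largest in this class at that level of expression, and the adjusted p was 0.0544 without AS1411 replicate 2 at 24 h, 0.0501 without AS1411 replicate 3 at 24 h, 0.0806 without AS1411 replicate 2 at 48 h and 0.05104 without control replicate 2 at 24 h. Tnc, the matrix protein tenascin C, was at 0.64 (edgeR adjusted p = 0.0352), the proteasome subunit Psmb10 at 0.43 (edgeR adjusted p = 0.0385), the insulin receptor Insr at -0.51 (edgeR adjusted p = 0.04699) and the kinase-like gene Adck1 at -0.47 (edgeR adjusted p = 0.0176). Tnc lost its call in the fits that left out any 1 library other than AS1411 replicate 1 at 24 h or control replicate 3 at 48 h, with adjusted p of 0.0511 to 0.142. Psmb10 lost it without any 1 library other than control replicate 3 at 48 h (0.0501 to 0.1104), and Insr without any 1 other than control replicate 1 at 48 h (0.0571 to 0.149). Map2k3os is an antisense RNA at 0.56 (edgeR adjusted p = 0.0476). Whether counting used the strand is not given in the sources used here, so its reads cannot be told apart from those of Map2k3. It lost its call without any 1 library other than AS1411 replicate 3 at 24 h or control replicate 2 at 48 h (0.0632 to 0.143).

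Seen from the treatment side, most interactions were an AS1411 effect that reached the threshold at 48 h. AS1411 against control passed for 29.7% of all genes at 24 h and for 57.9% at 48 h, and for 36.7% and 59.3% without control replicate 2 at 48 h. Among the interacting genes, 2105 (58.6%) had a call at 48 h alone, 1063 (29.6%) had a call at both times in the same direction with the larger effect at 48 h, 227 (6.32%) at 24 h alone, 14 at both times with the smaller effect at 48 h and 64 at neither. In the remaining 121 genes (3.37%) the effect passed at both times in opposite directions: 84 had gone from lower to higher with AS1411 and 37 from higher to lower. Without control replicate 2 at 48 h the effect passed at 48 h alone in 2262 genes, at both times with the larger effect at 48 h in 1340, at 24 h alone in 325 and at both times in opposite directions in 247. The count of opposite effects was 64 to 80 without AS1411 replicate 2 or 3 at 24 h, AS1411 replicate 2 at 48 h or any 1 of the control libraries at 24 h. Effects that were larger at 48 h numbered 650 to 705 without AS1411 replicate 1 or 3 at 24 h or control replicate 1 or 2 at 24 h, and effects at 24 h alone 132 to 150 without AS1411 replicate 1 at 24 h or control replicate 1 or 2 at 24 h. Arrdc3, an alpha-arrestin related to Txnip, was at 31.1, 29.8 and 28.9 CPM with AS1411 at 24 h, 90.9 and 101 with AS1411 at 48 h, 44.3, 48.8 and 37.3 with the control at 24 h, and 31.6, 32.7 and 29.9 with the control at 48 h. Its libraries did not overlap between treatments at either time, with an effect of -0.54 at 24 h and 1.61 at 48 h, and the interaction was 2.15 ± 0.117 (edgeR adjusted p = 9.9e-10). Nfkbie, which holds NF-kB in the cytoplasm, was at 17.9, 16.1 and 16.2 CPM with AS1411 at 24 h, 35.03 and 34.5 with AS1411 at 48 h, 21.05, 19.6 and 21.9 with the control at 24 h, and 14.5, 16.8 and 15.3 with the control at 48 h. The order of the treatments turned between the times, from -0.32 to 1.16, with an interaction of 1.48 ± 0.119 (edgeR adjusted p = 6.2e-08). In the other direction, Dlk2, a Notch-ligand-like protein, went from 0.17 to -0.71, Hs3st3a1, a heparan sulfate sulfotransferase, from 0.47 to -0.38, and Lfng, a glycosyltransferase that modifies Notch receptors, from 0.30 to -0.54. None of these 3 overlapped between treatments at either time.

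Gene lists were read beside all 13040 genes tested, of which 13.4% had a higher and 14.1% a lower interaction, with medians of -0.0049 for the interaction, -0.0013 for the AS1411 time change and -0.0043 for the control time change. The counts are descriptions without a test of the list. Scaling by library size alone moved 21 of the 70 list counts by more than 1.5 times, with 7 counts of higher members going up and 14 counts of lower members going down.

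**Figure D4:**
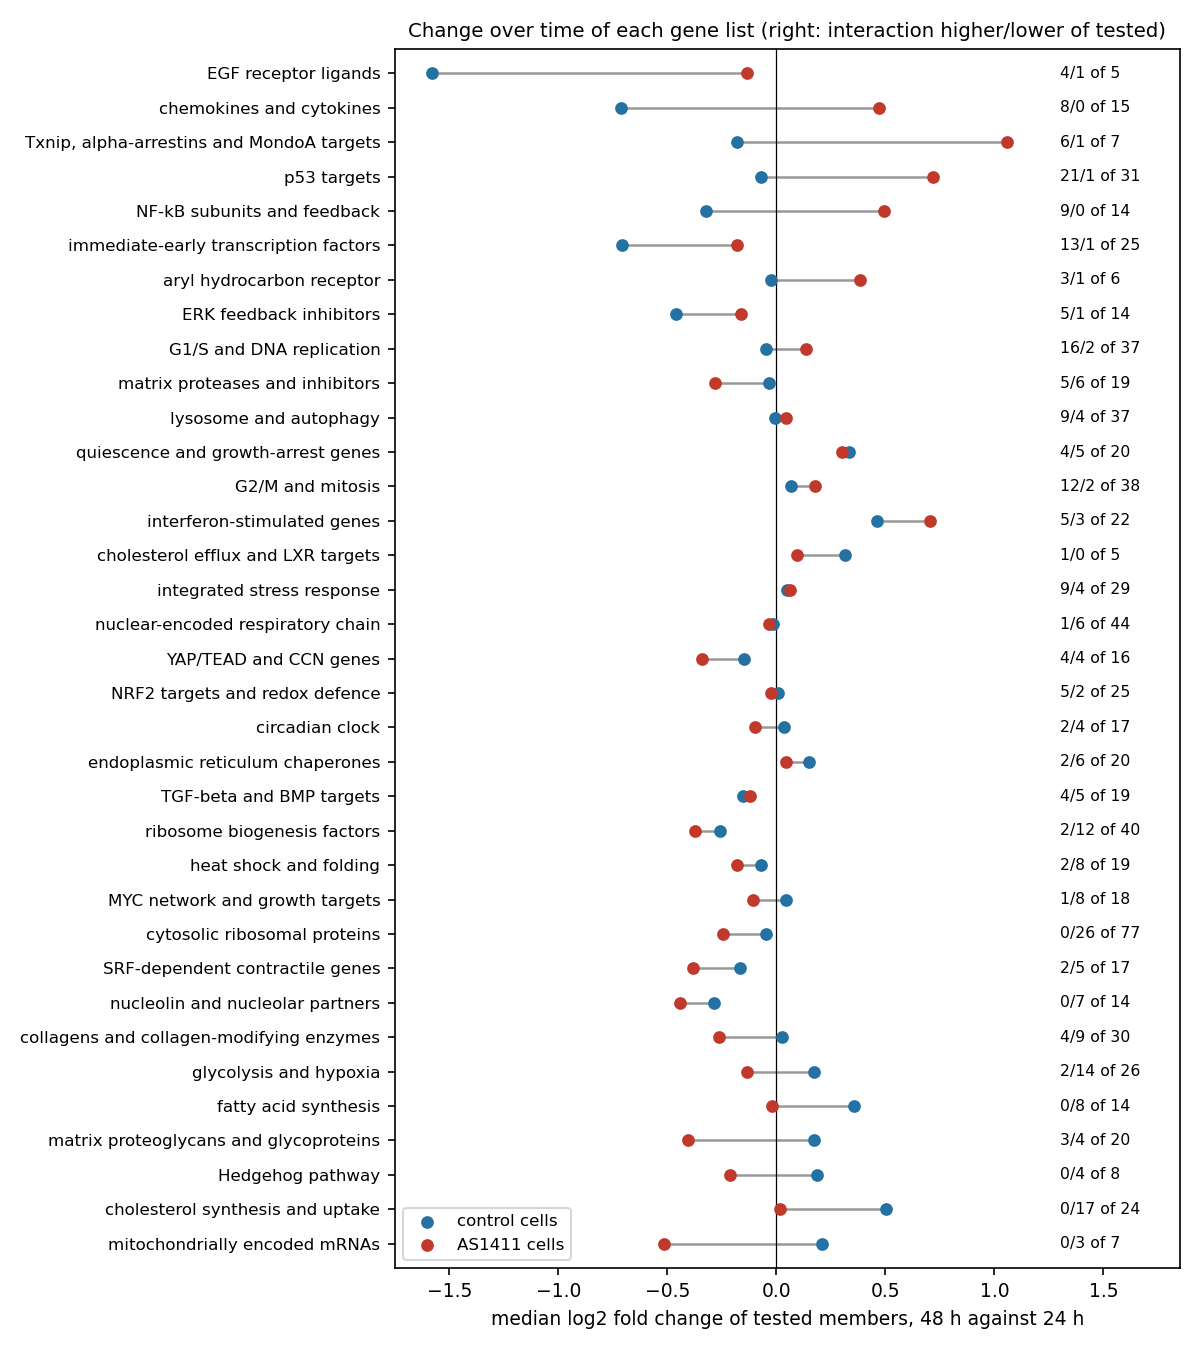
Median log2 change from 24 h to 48 h (x axis) over the tested members of each of the gene lists (y axis), in red for AS1411 cells and in blue for control cells, with the number of members whose interaction was higher and lower at the right. The gap between the points runs from lists in which AS1411 cells lie to the right, such as EGF receptor ligands and p53 targets, to lists in which they lie to the left, such as cholesterol synthesis and mitochondrial mRNAs.

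Nucleolar and ribosomal genes had lower interactions where they were called, with few exceptions. Nucleolin itself, Ncl, was at 2296, 2386 and 2411 CPM with AS1411 at 24 h, 1404 and 1652 with AS1411 at 48 h, 3412, 3535 and 3464 with the control at 24 h, and 2738, 3294 and 2714 with the control at 48 h. AS1411 libraries were lower than control libraries at both times, and within each treatment the 48 h libraries were below the 24 h ones. The interaction was -0.38 ± 0.116 (edgeR adjusted p = 0.0345), from changes of -0.63 and -0.25, and the adjusted p was 0.0597 without AS1411 replicate 2 at 24 h, 0.0663 without AS1411 replicate 3 at 24 h, 0.102 without AS1411 replicate 1 at 48 h, 0.0599 without control replicate 1 at 24 h and 0.0574 without control replicate 3 at 24 h. Npm1, the nucleolar protein nucleophosmin, was at 1112, 1179 and 1197 CPM with AS1411 at 24 h, 794 and 871 with AS1411 at 48 h, 1716, 1784 and 1739 with the control at 24 h, and 1645, 1798 and 1542 with the control at 48 h. Its control libraries overlapped between times, and its interaction was -0.41 ± 0.0763 (edgeR adjusted p = 7.5e-04). Of 14 nucleolar genes, 0 had a higher interaction (edgeR; 0 at an unadjusted p under 0.05, 0 with DESeq2 and 1 with voom) and 7 a lower one, with a median of -0.21. The higher count was 4 without control replicate 2 at 48 h. Ubtf, a factor for RNA polymerase I, was at -0.57 and Npm3 at -0.51. Over the 40 ribosome biogenesis factors the time changes were downward in both treatments: 32 fell in AS1411 cells and 31 in control cells. The interaction was lower for 12 and higher for 2, with a median of -0.13. The higher count was 0 without AS1411 replicate 2 at 48 h, 1 without AS1411 replicate 2 or 3 at 24 h, AS1411 replicate 1 at 48 h, control replicate 1, 2 or 3 at 24 h or control replicate 1 or 3 at 48 h and 4 without control replicate 2 at 48 h, and the lower count was 3 without AS1411 replicate 1 at 48 h and 7 without AS1411 replicate 3 at 24 h. Polr1b, a subunit of RNA polymerase I, was at -0.40 and Ebna1bp2, a factor for rRNA processing, at -0.32. Of 77 cytosolic ribosomal proteins, 58 fell in AS1411 cells and 14 in control cells, and 26 had a lower interaction against 0 higher (edgeR; 1 at an unadjusted p under 0.05, 0 with DESeq2 and voom; 1 without control replicate 2 at 48 h), with a median of -0.17. Rps15a was at -0.35 and Rpl14 at -0.36. Lower members numbered 14 without AS1411 replicate 1 at 48 h, and scaling by library size alone gave 13. Ribosomal protein genes have many processed copies, so their counts may be shared.

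Targets of p53 had the highest share of higher interactions among the lists with at least 20 tested members: 21 of 31 against 1 lower, with a median interaction of 0.83, an AS1411 time change of 0.72 and a control time change of -0.07. In 12 of the 22 called members AS1411 cells alone had a call over time, and in 7 the treatments moved in opposite directions. Mdm2 was at 116, 116 and 114 CPM with AS1411 at 24 h, 349 and 308 with AS1411 at 48 h, 97.2, 97.9 and 101 with the control at 24 h, and 87.1, 80.9 and 89.7 with the control at 48 h. AS1411 cells were higher at both times, by 0.23 at 24 h and 1.93 at 48 h on the log2 scale. The interaction was 1.71 ± 0.0741 (edgeR adjusted p = 2.3e-11). Plk2, a polo-like kinase, was at 716, 691 and 669 CPM with AS1411 at 24 h, 855 and 907 with AS1411 at 48 h, 829, 810.3 and 818 with the control at 24 h, and 357, 414 and 358 with the control at 48 h. Control cells fell by 1.12 and AS1411 cells rose by 0.35 on the log2 scale, and the interaction was 1.47 ± 0.0735 (edgeR adjusted p = 2.1e-10). Further members, chosen after their values were seen, were the death genes Fas at 1.996 and Bbc3 at 1.13, the DNA damage gene Gadd45a at 2.04, and Trp53inp1 at 2.04. Bax, another death gene of the list, went the other way at -0.36, and lower members of this list numbered 2 without AS1411 replicate 1 at 48 h or control replicate 2 at 48 h.

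Growth-factor signalling genes mostly fell over time in control cells, and fewer fell in AS1411 cells. Of 25 immediate-early transcription factors, which growth factors switch on within minutes to hours, 19 fell in control cells and 11 in AS1411 cells, and 13 had a higher interaction against 1 lower (medians 0.66 for the interaction, -0.18 for AS1411 and -0.71 for control). The 1 lower call became 0 without AS1411 replicate 1, 2 or 3 at 24 h, AS1411 replicate 2 at 48 h or control replicate 2 or 3 at 24 h and 2 without control replicate 3 at 48 h, and 0 under scaling by library size alone. Atf3 was at 23.7, 24.5 and 21.1 CPM with AS1411 at 24 h, 91.2 and 102 with AS1411 at 48 h, 17.9, 21.4 and 17.6 with the control at 24 h, and 12.3, 16.5 and 12.4 with the control at 48 h. Treatments overlapped at 24 h, and at 48 h the AS1411 libraries were all above the control. Its interaction was 2.53 ± 0.156 (edgeR adjusted p = 2.3e-08). Maff, a small Maf factor, was at 1.17. The list named EGF receptor ligands also holds Nrg1, so its genes are EGF-family ligands here. Its 5 tested genes, of 6 listed, all fell in control cells, by a median of 1.58 on the log2 scale. With AS1411 their median was -0.14. The interaction was higher for 4 of them and lower for Nrg1, a neuregulin, whose call (named after its value was seen, -0.34, edgeR adjusted p = 0.0264) was lost without AS1411 replicate 2 or 3 at 24 h or AS1411 replicate 2 at 48 h, with DESeq2 and under scaling by library size alone. Ereg, or epiregulin, was at 74.4, 66.4 and 66.7 CPM with AS1411 at 24 h, 37.8 and 43.8 with AS1411 at 48 h, 70.4, 66.8 and 67.4 with the control at 24 h, and 14.95, 15.6 and 15.9 with the control at 48 h. It fell in both treatments and fell further in control cells, with an interaction of 1.38 ± 0.1002 (edgeR adjusted p = 2.0e-08). Hbegf, another ligand, was at 168, 149 and 154 CPM with AS1411 at 24 h, 142 and 144 with AS1411 at 48 h, 154, 146 and 141 with the control at 24 h, and 46.7, 65.99 and 49.3 with the control at 48 h. The treatments overlapped at 24 h and not at 48 h, and the interaction was 1.31 ± 0.159 (edgeR adjusted p = 3.2e-04). Of 14 tested inhibitors that feed back on ERK, 5 were higher and 1 lower. The phosphatase gene Dusp6 was at 0.91, with control cells at -0.92, and Dusp8 at 0.84.

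**Figure D5:**
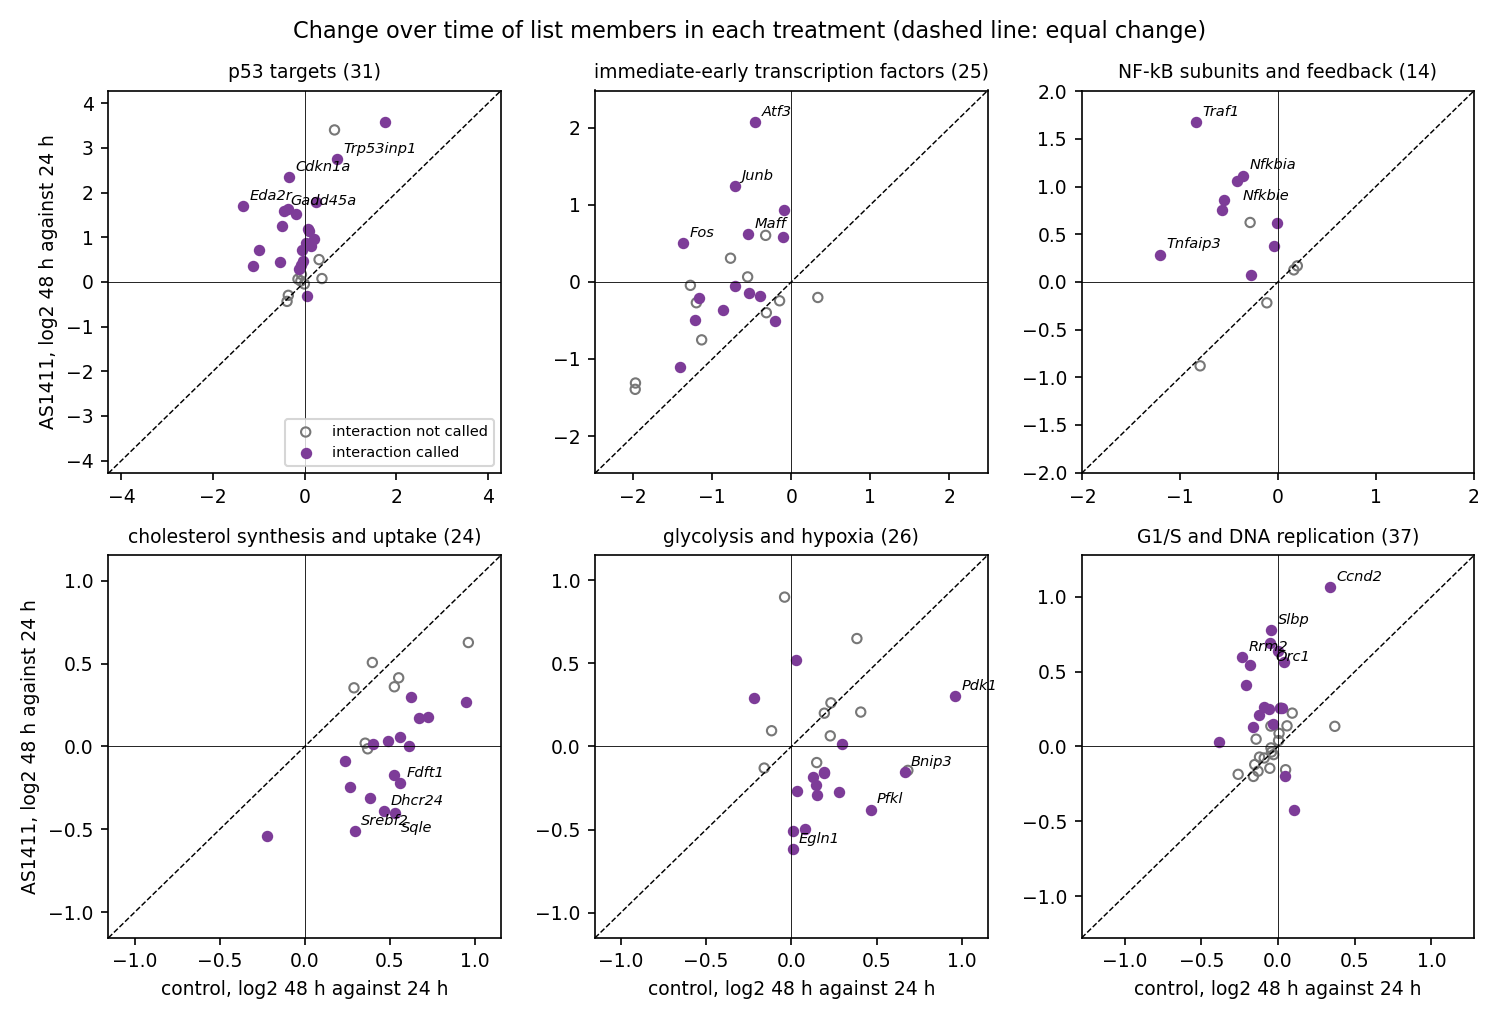
Log2 change from 24 h to 48 h of each tested member of 6 gene lists in control cells (x axis) and in AS1411 cells (y axis), filled where the interaction was called, with the dashed line at equal change. Most p53, immediate-early and NF-kB members lie above the line and most cholesterol and glycolysis members below it.

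Among inflammatory signalling genes, the NF-kB and chemokine lists held more higher than lower interactions and the interferon list was mixed. Of 14 NF-kB subunits and feedback genes, 7 rose and 2 fell over time in AS1411 cells, and 8 fell in control cells. The interaction of 9 was higher and of 0 lower (edgeR; also 0 at an unadjusted p under 0.05 and with DESeq2 and voom), with medians of 0.77 for the interaction, 0.50 for AS1411 and -0.32 for control cells. Nfkb2, an NF-kB subunit, was at 263, 252 and 253 CPM with AS1411 at 24 h, 428 and 435 with AS1411 at 48 h, 280.3, 267 and 277 with the control at 24 h, and 174, 201 and 179 with the control at 48 h. Nfkbia, the inhibitor IkB-alpha that NF-kB itself induces, was at 71.3, 67.1 and 66.4 CPM with AS1411 at 24 h, 149.6 and 146 with AS1411 at 48 h, 81.7, 74.5 and 77.3 with the control at 24 h, and 56.96, 67.5 and 57.7 with the control at 48 h. At 24 h AS1411 libraries of Nfkbia lay below the control, and at 48 h they lay above it. The interactions were 1.32 ± 0.0699 for Nfkb2 (edgeR adjusted p = 2.3e-10) and 1.47 ± 0.0878 for Nfkbia (edgeR adjusted p = 1.1e-09). Among 15 tested chemokines and cytokines of 23 listed, 8 had a higher interaction and 0 a lower one (edgeR; 1 at an unadjusted p under 0.05, with DESeq2 and with voom), with a median of 1.06. Calls in the lower direction numbered 2 without control replicate 2 at 48 h. Ccl2, which attracts monocytes, was at 20.5, 18.3 and 17.2 CPM with AS1411 at 24 h, 49.9 and 53.9 with AS1411 at 48 h, 20.8, 17.1 and 17.9 with the control at 24 h, and 8.03, 8.69 and 9.71 with the control at 48 h. Its treatments overlapped at 24 h, and the interaction was 2.55 ± 0.141 (edgeR adjusted p = 4.4e-10). Interferon-stimulated genes were mixed, with 5 higher and 3 lower of 22 tested, and 13 rose in AS1411 cells and 9 in control cells. Irf9, part of the interferon-activated transcription complex, was at 0.56 (edgeR adjusted p 0.0799 without AS1411 replicate 1 at 48 h) and Ifit2, an antiviral gene, at -0.38. The higher count was 2 without control replicate 3 at 24 h and 3 without AS1411 replicate 1 or 3 at 24 h, AS1411 replicate 1 at 48 h, control replicate 1 or 2 at 24 h or control replicate 1 at 48 h, and the lower count 1 without AS1411 replicate 1 or 3 at 24 h, AS1411 replicate 1 or 2 at 48 h or control replicate 2 at 24 h.

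Stress and folding genes were mixed within each branch. Higher calls were the more frequent in the integrated stress response, and lower calls among chaperone and heat shock genes. In the integrated stress response, which lowers translation and induces Atf4 targets, 9 of 29 were higher and 4 lower, with a median of 0.0025. Ppp1r15a, a phosphatase subunit that restores translation, was at 91.7, 92.7 and 82.2 CPM with AS1411 at 24 h, 177 and 199 with AS1411 at 48 h, 72.2, 70.3 and 69.04 with the control at 24 h, and 32.6, 33.4 and 31.2 with the control at 48 h. Its interaction was 2.205 ± 0.0844 (edgeR adjusted p = 4.9e-12), with a rise of 1.08 in AS1411 cells and a change of -1.12 in control cells. Ddit3, the transcription factor CHOP, was at 17.7, 17.7 and 16.04 CPM with AS1411 at 24 h, 69.6 and 68.1 with AS1411 at 48 h, 15.9, 18.5 and 19.4 with the control at 24 h, and 26.7, 24.2 and 24.3 with the control at 48 h. Both treatments rose, with an interaction of 1.53 ± 0.116 (edgeR adjusted p = 2.9e-08). The amino acid genes Slc7a5 (-0.57) and Psat1 (-0.50) were among the 4 lower members and were chosen after their values were seen. Of 20 endoplasmic reticulum chaperone genes, 2 were higher, among them Dnajb9 at 1.23, and 6 lower, among them the disulfide isomerase Pdia6 at -0.38. Members with a lower call numbered 3 without AS1411 replicate 2 at 48 h and 10 without control replicate 2 at 48 h. Cytosolic heat shock genes were lower for 8 of 19 and higher for 2. The chaperone Hspa8 was at -0.60 and the co-chaperone Fkbp4 at -0.54. The lower count was 5 without AS1411 replicate 2 or 3 at 24 h or control replicate 1 at 24 h. Scaling by library size alone gave 5 lower heat shock genes and 3 lower endoplasmic reticulum chaperone genes.

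Txnip belongs to the alpha-arrestins, several of which respond to the glucose-sensing factors MondoA and ChREBP. All 7 genes of that list were called, 6 higher and 1 lower, with medians of 0.93 for the interaction, 1.06 for AS1411 cells and -0.18 for control cells. Arrdc4 was at 1.700, Arrdc2 at 0.93 and Arrdc1 at 0.54, and Txn1, the thioredoxin that Txnip binds, at -0.29. These 4 were chosen after their values were seen. The Txnip promoter is shown because this gene had the largest interaction among well-expressed genes. It spans 250 bases before to 50 after the start of the gene, RefSeq, GRCm38.p6, chr3:96557707-96558006, plus strand. Capitals mark a match to the carbohydrate response element searched as CACGNG, a spacer of 5 bases of any kind and CACGNG again, which begins 85 bases upstream of the start.
Txnip promoter: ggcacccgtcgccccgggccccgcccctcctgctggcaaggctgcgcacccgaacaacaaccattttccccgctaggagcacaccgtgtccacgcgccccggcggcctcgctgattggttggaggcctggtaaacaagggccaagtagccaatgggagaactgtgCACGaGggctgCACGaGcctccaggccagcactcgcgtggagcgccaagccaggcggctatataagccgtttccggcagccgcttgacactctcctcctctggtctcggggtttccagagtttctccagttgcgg

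On both strands that motif was found in 10 of the 9609 tested genes with a promoter in the RefSeq table. Of all 27025 genes with a promoter there, 15 (0.0555%) held it. A gene counted if any of its promoters held the motif. The E-box CACGTG, a shorter motif that can overlap others, was found in 12.02% of tested genes and 8.09% of all genes with a promoter. The carbohydrate element was found in 1 of the 7 genes of the Txnip list, Txnip itself. It was also found in 1 of 11 NF-kB list genes with a promoter. A match in letters is a description and does not show binding.

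Of lipid synthesis genes, most of the cholesterol list and 7 of 14 in the fatty acid list rose over time in control cells. Fewer did with AS1411. Of 24 cholesterol synthesis and uptake genes, 23 rose over time in control cells, and in AS1411 cells 6 rose and 7 fell. The interaction was lower for 17 and higher for 0 (edgeR; also 0 at an unadjusted p under 0.05 and with DESeq2 and voom), with medians of -0.48 for the interaction, 0.02 for AS1411 and 0.50 for control cells. Of the 17, 9 had a call over time in control cells alone, 6 had opposite changes and 2 changed in the same direction. Against the control, 21 of the 24 were already lower and 0 higher with AS1411 at 24 h (median -0.62). At 48 h 23 were lower and 0 higher (median -1.09). Of all genes 16.7% were lower at 24 h and 28.5% at 48 h. Srebf2, the transcription factor that drives this pathway, was at 278, 286 and 288 CPM with AS1411 at 24 h, 204 and 194 with AS1411 at 48 h, 385, 365 and 379 with the control at 24 h, and 459, 504 and 421 with the control at 48 h. Its interaction was -0.81 ± 0.0782 (edgeR adjusted p = 1.1e-06). Sqle, the enzyme squalene epoxidase, was at 133, 139.7 and 144 CPM with AS1411 at 24 h, 109 and 101 with AS1411 at 48 h, 245, 251 and 229 with the control at 24 h, and 359.6, 379.9 and 308 with the control at 48 h. As for Srebf2, AS1411 libraries fell and control libraries rose without overlap between times. The interaction of Sqle was -0.93 ± 0.104 (edgeR adjusted p = 2.4e-05). The exception in direction over time was Ebp, which fell in both treatments (-0.54 with AS1411 and -0.22 with the control). Of 14 fatty acid synthesis genes, 8 were lower and 0 higher (edgeR; also 0 at an unadjusted p under 0.05 and with DESeq2 and voom), with a median of -0.44. Elovl6, which lengthens fatty acids, was at 87.8, 90.8 and 87.4 CPM with AS1411 at 24 h, 66.2 and 63.4 with AS1411 at 48 h, 142, 138 and 144 with the control at 24 h, and 217, 241 and 192 with the control at 48 h, with an interaction of -1.07 ± 0.0983 (edgeR adjusted p = 1.8e-06). Scd1, a fatty acid desaturase, rose in both treatments and less with AS1411, with an interaction of -0.57 ± 0.0782 (edgeR adjusted p = 3.3e-05). A list of cholesterol efflux genes and targets of the nuclear receptor LXR had 5 tested members. The 1 called was Mylip, a ubiquitin ligase gene, at 0.63. That count was 0 without AS1411 replicate 1 or 3 at 24 h or control replicate 1 or 2 at 24 h.

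Promoters of 2 cholesterol genes are shown because members of this pathway moved together and share a CCAAT-type motif, searched as CCAATCA on both strands. Of 17 list members with a promoter in the RefSeq table, 11 (64.7%) held it. The share was 12.2% of the tested genes and 9.00% of all genes with a promoter. It was 1 of 8 motifs searched, chosen with the results known, so the share is a description. Of the same 17 genes, 4 (23.5%) held the E-box CACGTG and 2 (11.8%) the core of the sterol element SRE-1, which 3.83% of tested genes held. Of the 17, 0 held any of the other 5 motifs (a cyclic AMP element, a CArG box, 2 NF-kB sites and the carbohydrate element). Dhcr7, the last enzyme of cholesterol synthesis, has its match 85 bases upstream (GRCm38.p6, chr7:143829964-143830263, plus strand) and Mvk, mevalonate kinase, 16 bases upstream on the other strand (chr5:114444019-114444318, plus strand), in capitals.
Dhcr7 promoter: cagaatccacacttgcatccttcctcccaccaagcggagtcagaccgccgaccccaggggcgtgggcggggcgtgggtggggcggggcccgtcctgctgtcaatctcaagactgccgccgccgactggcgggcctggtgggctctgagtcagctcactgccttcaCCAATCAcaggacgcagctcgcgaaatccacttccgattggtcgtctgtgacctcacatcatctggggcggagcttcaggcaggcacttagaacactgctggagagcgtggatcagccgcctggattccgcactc
Mvk promoter: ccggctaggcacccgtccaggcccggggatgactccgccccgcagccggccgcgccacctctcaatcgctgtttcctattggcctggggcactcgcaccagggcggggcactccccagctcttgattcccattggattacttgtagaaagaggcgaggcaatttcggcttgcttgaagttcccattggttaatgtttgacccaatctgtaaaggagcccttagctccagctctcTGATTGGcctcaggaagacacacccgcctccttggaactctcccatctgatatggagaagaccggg

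In energy metabolism, 14 of 26 glycolysis and hypoxia genes had a lower interaction and 2 a higher one (median -0.30), with 10 members rising in control cells and 11 falling in AS1411 cells. Pfkl, a phosphofructokinase subunit, was at 156, 152 and 171 CPM with AS1411 at 24 h, 122 and 124 with AS1411 at 48 h, 162, 159 and 169 with the control at 24 h, and 235, 228 and 212 with the control at 48 h. The treatments overlapped at 24 h, then AS1411 fell and control rose, with an interaction of -0.85 ± 0.0739 (edgeR adjusted p = 1.9e-07). Aldoa, an aldolase, was at -0.56 and Ldha, lactate dehydrogenase A, at -0.50. Of 7 mitochondrially encoded mRNAs, 3 were lower and 0 higher (edgeR; also 0 at an unadjusted p under 0.05 and with DESeq2 and voom), with a median of -0.68. mt-Nd1 was at -1.06 and mt-Nd2 at -1.04, both subunits of respiratory complex I. The adjusted p (edgeR) was 0.0552 without AS1411 replicate 1 at 48 h and 0.0746 without AS1411 replicate 2 at 48 h for mt-Nd1, and 0.05503 without AS1411 replicate 2 at 48 h for mt-Nd2. Lower members numbered 0 without AS1411 replicate 2 at 48 h and 1 without AS1411 replicate 1 at 48 h. Mitochondrial reads made up 1.29% to 1.71% of a library with AS1411 at 24 h, 1.07% to 1.19% with AS1411 at 48 h, 0.713% to 0.897% with the control at 24 h and 0.863% to 1.22% with the control at 48 h, the highest of the last group in control replicate 2. All 7 tested mRNAs, of 13 listed, were higher with AS1411 than with the control at 24 h (median 0.90), against 13.1% of all genes. At 48 h 2 of them were higher and 0 lower (median 0.19), and of all genes 29.4% were higher and 28.5% lower. The part of the library makeup in these calls was not tested. Among 44 nuclear-encoded respiratory chain genes 6 were lower and 1 higher (0 without AS1411 replicate 2 at 48 h), a share of lower calls near that of all genes. Sdhc was at -0.33 and Ndufs8 at -0.32, and the lower count was 3 without AS1411 replicate 2 or 3 at 24 h or AS1411 replicate 1 at 48 h.

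Cell-cycle genes more often had a higher than a lower interaction. Of 37 genes for G1/S and DNA replication, 16 had a higher interaction and 2 a lower one (median 0.18), with 19 rising in AS1411 cells and 10 falling in control cells. Rrm2, a subunit that makes deoxynucleotides, was at 249, 247 and 253 CPM with AS1411 at 24 h, 367 and 388 with AS1411 at 48 h, 256, 254 and 252 with the control at 24 h, and 214, 211 and 224 with the control at 48 h. Slbp, which binds histone mRNA, was at 146, 145 and 154 CPM with AS1411 at 24 h, 252 and 256 with AS1411 at 48 h, 144, 141 and 143 with the control at 24 h, and 142, 132 and 141 with the control at 48 h. The control libraries of Slbp overlapped between times. The interactions were 0.83 ± 0.0566 for Rrm2 (edgeR adjusted p = 8.5e-09) and 0.82 ± 0.0613 for Slbp (edgeR adjusted p = 2.6e-08). For G2/M and mitosis 12 of 38 were higher and 2 lower. The lower members numbered 1 without AS1411 replicate 1, 2 or 3 at 24 h, AS1411 replicate 2 at 48 h, control replicate 1 or 2 at 24 h or control replicate 1 or 3 at 48 h, and 0 under scaling by library size alone. Among the higher were the mitotic kinesins Kif23 at 0.58 and Kif4 at 0.50. Against the control, 32 of the 38 were lower and 1 higher with AS1411 at 24 h (median -0.32). At 48 h 19 were lower and 5 higher (median -0.11). Of all genes 16.7% were lower at 24 h and 28.5% at 48 h. The AS1411 effect on Kif23 was -0.54 at 24 h and 0.04 at 48 h, where it did not pass (edgeR adjusted p = 0.511). That on Kif4 went from -0.29 to 0.20. In the MYC network the interaction was lower for 8 of 18 and higher for 1. The higher count was 2 without control replicate 3 at 48 h and 3 without control replicate 2 at 48 h. Srm, which makes spermidine, was at -0.59. Calls in the lower direction numbered 5 without AS1411 replicate 2 at 24 h or AS1411 replicate 1 at 48 h. Quiescence and growth-arrest genes split, with 4 higher of 20, such as the antiproliferative gene Tob1 at 0.62, and 5 lower, such as Gas1 and the kinase inhibitor gene Cdkn2a at -0.57. Members with a lower call numbered 3 without AS1411 replicate 1 or 2 at 24 h, AS1411 replicate 1 at 48 h or control replicate 1 or 3 at 24 h.

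Of 30 collagens and their enzymes, 9 had a lower and 4 a higher interaction (median -0.26). Loxl1 was at -0.45 and Lox at -0.37, both collagen cross-linking oxidases. Lox was higher with AS1411 than with the control at both times, by 0.58 at 24 h and 0.21 at 48 h on the log2 scale. The AS1411 effect on Loxl1 went from 0.32 to -0.14. The count of lower interactions was 14 without control replicate 2 at 48 h. Proteoglycans and glycoproteins had 4 lower and 3 higher of 20. Neither count was stable to leaving out 1 library: the higher count was 0 without AS1411 replicate 2 or 3 at 24 h, AS1411 replicate 1 at 48 h or control replicate 1 at 48 h and 1 without AS1411 replicate 2 at 48 h or control replicate 1, 2 or 3 at 24 h. Sparc, a collagen-binding protein, was at -0.34, with an adjusted p of 0.08205 (edgeR) under scaling by library size alone. The lower count of that list was 1 without AS1411 replicate 3 at 24 h or control replicate 2 at 24 h, 2 without AS1411 replicate 1 or 2 at 24 h, AS1411 replicate 2 at 48 h or control replicate 3 at 48 h and 8 without control replicate 2 at 48 h. Matrix proteases and inhibitors had 6 lower, such as the membrane protease Mmp14 at -0.32, and 5 higher, such as the urokinase gene Plau at 0.50, of 19. The higher count was 8 without control replicate 2 at 48 h. Of 17 contractile genes controlled by SRF, 5 were lower, among them Actb at -0.45 and the calponin Cnn2 at -0.60, and 2 higher (1 without AS1411 replicate 1 at 48 h or control replicate 1 at 24 h). Lower members numbered 3 without AS1411 replicate 2 at 48 h.

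Of 16 YAP/TEAD and CCN genes, 4 were higher and 4 lower. Ccn2, a matrix-associated growth regulator, fell in both treatments, by less with AS1411 (-0.98 against -2.02), with an interaction of 1.04 ± 0.124 (edgeR adjusted p = 1.9e-04). Wwtr1, the YAP relative TAZ, was at 0.37. Calls in the lower direction numbered 2 without AS1411 replicate 2 at 48 h or control replicate 2 at 24 h. TGF-beta and BMP targets had 4 higher and 5 lower of 19. Both named members are inhibitors of SMAD signalling and were higher, Smad7 at 1.22 and Skil at 0.76. Members with a lower call numbered 3 without AS1411 replicate 1 or 2 at 48 h and 8 without control replicate 2 at 48 h. In the Hedgehog pathway 4 of 8 were lower and 0 higher (edgeR; also 0 at an unadjusted p under 0.05 and with DESeq2 and voom), with a median of -0.47, among them the signal transducer Smo at -0.52 beside Ptch1. Clock genes had 4 lower and 2 higher of 17, with the transcription factors Hlf at -1.23 and Tef at -0.38. The higher count was 1 without AS1411 replicate 1 at 48 h. For the aryl hydrocarbon receptor 3 of 6 were higher, such as the quinone reductase Nqo1 at 0.71, and 1 lower, the receptor partner Arnt at -0.35. The lower count was 2 without control replicate 2 at 48 h. Lysosome and autophagy genes had 9 higher and 4 lower of 37, with the autophagy receptor Sqstm1 at 0.68 and the sialidase Neu1 at 0.54, and scaling by library size alone gave 16 higher. Lower members numbered 2 without AS1411 replicate 2 at 48 h. NRF2 targets had 5 higher and 2 lower of 25. Hmox1, heme oxygenase, was at 0.61 and Nfe2l2, which encodes NRF2, at 0.48. Calls in the lower direction numbered 1 without AS1411 replicate 3 at 24 h, control replicate 3 at 24 h or control replicate 1 at 48 h and 4 without control replicate 2 or 3 at 48 h. Against the control, 15 of the 25 NRF2 targets were lower and 0 higher with AS1411 at 24 h. At 48 h 16 were lower and 5 higher. Of all genes 16.7% were lower at 24 h and 28.5% at 48 h. The AS1411 effect on Hmox1 was -0.54 at 24 h and 0.07 at 48 h, where it did not pass (edgeR adjusted p = 0.164).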

How the data were processed

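Polyadenylated RNA of NIH-3T3 cells was sequenced in 11 libraries, grouped by their titles. The authors deposited raw counts per gene for 15022 genes, made, per the submitters' processing notes, with bcl2fastq, cutadapt, STAR and HTSeq on GRCm38. Neither tool versions nor the strand setting is given in the sources used here. Whether replicates came from separate cultures is not in the labels, and p-values then reflect only the variation among these samples, possibly technical. A second table deposited by the authors, of normalized counts, was not used.

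The filter on low counts (edgeR's filterByExpr, by group) left 13040 genes. With TMM scaling, all 11 libraries entered 1 robust quasi-likelihood fit of the 4 group means (edgeR 4.0.16 under R 4.3.3), leaving 7 residual degrees of freedom. Tests were two-sided and adjusted by Benjamini-Hochberg over all genes for the interaction and for each time or treatment change, at 0.05. The SE is the log2 value divided by the root of F. The time class follows the calls of both time changes. Alternatives were other scalings, filters and thresholds, DESeq2 1.42.0, limma 3.58.1 voom with quality weights, replicate blocks, other class rules and leaving out each library.

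The members and the 35 gene lists (826 entries, with 7 marker lists beside them) were chosen with earlier results of these data known. By rule, leaving out predicted or clone-named genes, the text names the 3 largest interactions per class and direction at an average log2 CPM of at least 3, the 3 largest per direction with a reversed effect, up to 2 called members with the smallest adjusted p of lists with at least 3 called members, and Ncl, Npm1, Cdkn1a, Txnip and Gas1. Other names were chosen after their values were seen. Gene identifiers were matched to GENCODE M21, where 14973 were found and 49 were not, and promoters to RefSeq (GRCm38.p6). A few items are not reported here.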

Additional observations from a re-analysis of the deposited data

Results flagged for a closer look

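Each of the 3594 called interactions is itself a tested difference between the treatment effects at 24 h and at 48 h. Set out here are the 3 well-expressed genes in each direction with the largest interaction among the 121 whose effect passed at both times and turned its sign. Upward they were Arrdc3 with an interaction of 2.15 ± 0.117 (log2, SE; edgeR adjusted p = 9.9e-10), Resf1 with 1.79 ± 0.0899 (edgeR adjusted p = 2.0e-10) and Nfkbie with 1.48 ± 0.119 (edgeR adjusted p = 6.2e-08). Downward they were Dlk2 with -0.88 ± 0.0695 (edgeR adjusted p = 4.8e-08), Hs3st3a1 with -0.84 ± 0.191 (edgeR adjusted p = 0.00299) and Lfng with -0.84 ± 0.1101 (edgeR adjusted p = 2.0e-05).

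Dlk2 was at 159, 158 and 159.7 CPM with AS1411 at 24 h, 66.2 and 68.98 with AS1411 at 48 h, 143, 142 and 139 with the control at 24 h, and 102, 115 and 113 with the control at 48 h. Lfng was at 53.5, 51.6 and 51.3 CPM with AS1411 at 24 h, 24.2 and 27.8 with AS1411 at 48 h, 43.7, 43.2 and 39.9 with the control at 24 h, and 34.5, 36.7 and 41.8 with the control at 48 h. In both genes the AS1411 libraries were the higher group at 24 h and the lower group at 48 h. Hs3st3a1 was at 10.5, 10.3 and 9.995 CPM with AS1411 at 24 h, 6.504 and 5.28 with AS1411 at 48 h, 7.58, 6.31 and 8.36 with the control at 24 h, and 7.89, 7.101 and 8.04 with the control at 48 h, with the same order. The interaction of the 6 genes kept its direction in all 22 alternatives. Whether the effect of each gene kept its calls at 24 h and at 48 h was not followed there.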

How the results depend on the processing

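Of the 100 genes named by the rule, 88 kept their call and 0 reversed in the 22 alternatives. Genes named after their values were seen were not part of that tally. At an adjusted p of 0.01 the counts were 966 higher, 1040 lower, 216 and 45 at 2-fold or more, and 1380, 221, 125 and 178 for AS1411 cells changed, control cells changed, opposite and same direction. Scaling by library size gave 1192 lower, and DESeq2 called 2964 genes with 240 at least 2-fold higher. Classes that also need a log2 time change of at least 0.32 held 272 (control), 94 (opposite), 139 (same) and 1225 (neither) genes. Classes by size held 664 (opposite), 105 (same) and 0 (neither), the last by construction.

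Leaving out 1 library gave 1218 to 2039 higher, 1427 to 2238 lower, 284 to 412 and 59 to 120 at 2-fold or more, and 1611 to 2361, 299 to 595, 198 to 518, 248 to 664 and 91 to 139 in the 5 classes. A group left with 1 library is assumed to vary like the others. The labels do not say whether replicate numbers mark pairs, and they were not taken as pairs. Of 15 same-number pairs, 2 had a correlation of deviations over 0.1 (range of the 15: -0.0455 to 0.208). For 7 of 11 libraries the best correlation was with their own number. The 2 pairs over 0.1 both joined AS1411 and control at 48 h. With 2 libraries in the 48 h AS1411 group, their deviations mirror each other, so these values cannot decide on pairing. A replicate block gave 1731 higher and 1827 lower, and a replicate block within time 1970 and 2127. The cause of these moves was not tested. The 48 h AS1411 group rests on 2 libraries.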

Other observations

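Histone genes beyond those in the report are given by their levels, chosen after they were seen. Of 28 genes named Hist in the table, 11 passed the filter on low counts, and some of these passed it through the 48 h AS1411 libraries alone, so no count over them is read. Hist1h1b, a linker histone, was at 0.0631, 0.292 and 0.105 CPM with AS1411 at 24 h, 3.99 and 3.91 with AS1411 at 48 h, 0.1804, 0.134 and 0.367 with the control at 24 h, and 0.346, 0.184 and 0.614 with the control at 48 h. Hist3h2a, a histone H2A, was at 1.77, 1.75 and 2.58 CPM with AS1411 at 24 h, 5.99 and 5.61 with AS1411 at 48 h, 3.19, 2.95 and 2.71 with the control at 24 h, and 2.42, 3.18 and 2.74 with the control at 48 h. In both the 48 h AS1411 libraries were the highest. Hist1h4i, a histone H4, was at 6.63, 5.48 and 6.15 CPM with AS1411 at 24 h, 7.19 and 5.41 with AS1411 at 48 h, 9.502, 9.401 and 7.56 with the control at 24 h, and 10.4, 10.5 and 10.2 with the control at 48 h, with an interaction of -0.17 that did not pass (edgeR adjusted p = 0.557). Most replication-dependent histone mRNAs lack a poly(A) tail and the libraries were made from polyadenylated RNA, so these are levels of the captured part. These genes are close copies, and reads may be shared.

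Some of the largest interactions came from genes with low counts, named after their values were seen. Mmp13, a collagenase, was at 0.758, 0.9496 and 0.894 CPM with AS1411 at 24 h, 0.628 and 1.4996 with AS1411 at 48 h, 1.804, 1.88 and 1.47 with the control at 24 h, and 0.0692, 0.184 and 0.279 with the control at 48 h. Areg, the EGF receptor ligand amphiregulin, was at 2.904, 2.26 and 2.68 CPM with AS1411 at 24 h, 2.28 and 2.67 with AS1411 at 48 h, 3.13, 2.42 and 4.48 with the control at 24 h, and 0.346, 0.918 and 0.614 with the control at 48 h. In both genes the 48 h control libraries were the lowest, and the interactions were 3.43 ± 0.5995 (edgeR adjusted p = 3.3e-04) and 2.28 ± 0.417 (edgeR adjusted p = 5.3e-04). Markers of other cell types were few: of 28 listed, 7 were tested. Cd68 was the 1 tested leukocyte marker of 6, at 4.89 to 6.82 CPM with AS1411 at 24 h, 11.9 to 13.1 with AS1411 at 48 h, 4.90 to 6.97 with the control at 24 h and 3.73 to 4.07 with the control at 48 h. Its interaction of 1.56 passed (edgeR adjusted p = 6.4e-05). Des, the 1 tested skeletal muscle marker of 4, was at 0.757 to 1.37 CPM with AS1411 at 24 h, 5.99 to 7.75 with AS1411 at 48 h, 0.293 to 0.671 with the control at 24 h and 0.551 to 0.969 with the control at 48 h, with an interaction of 2.02 (edgeR adjusted p = 0.00729). The neuronal markers Tubb3 and Map2 summed to 57.8 to 64.98 CPM with AS1411 at 24 h, 72.9 to 74.98 with AS1411 at 48 h, 61.6 to 69.8 with the control at 24 h and 54.9 to 67.8 with the control at 48 h. Tubb3 had an interaction of 0.56 (edgeR adjusted p = 5.5e-04) and Map2 of 0.06, which did not pass (edgeR adjusted p = 0.918). The endothelial marker Kdr was at 0.02 and did not pass (edgeR adjusted p = 0.986). Krt14 and Cdh5 had too few counts to be tested, and Ptprc, Epcam, Pecam1 and Myod1 were not analysed here. The part of other cells in the results was not tested. The muscle count was 0 without control replicate 2 at 24 h.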
